A study of Mus musculus with 18 samples.

Results

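The genes examined were 9 components of JAK-STAT signalling: the kinases Jak1, Jak2 and Tyk2, the transcription factors Stat3 and Stat6, and the regulators Socs1, Socs2, Socs3 and Pias1. They were taken by symbol from a table of 55385 genes, all 9 were found, and all 9 passed the filter on low counts that left 18717 genes for testing. No measured value entered their choice, although they were listed with earlier results of these data known. The RNA came from brain cortex of mice aged 17.1 to 18.0 weeks, with 3 females and 3 males per genotype. Dp16 mice (n = 6 libraries, 17.1 to 18.0 weeks) carry a duplication of a segment of mouse chromosome 16 and are used as a model of trisomy 21. Dp16_2xIFNRs mice (n = 6, 17.7 to 18.0 weeks) keep the duplication but have the interferon receptor genes inside it back at the normal copy number. WT mice (n = 6, 17.1 to 18.0 weeks) were C57BL/6J, and the labels record no treatment for any animal. The labels give neither the strain background of the duplication genotypes nor whether each library is 1 animal, so p-values measure the spread between these libraries.

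JAK kinases sit on the intracellular tails of cytokine receptors and phosphorylate STAT proteins, which then pair, enter the nucleus and bind DNA. The SOCS genes are among the genes that STATs switch on, and their proteins shut the receptor complex down again, which makes them both a brake and a readout of the pathway. Interferon receptors use Jak1 together with Tyk2 (type I) or Jak2 (type II), which raises the question whether this downstream machinery changes with receptor dose. Only the comparison of Dp16_2xIFNRs with Dp16 addresses this, because both carry the duplication and the receptor genes differ in copy number. Dp16 against WT differs in the whole duplicated segment, which held 115 tested genes. That comparison therefore cannot separate receptor dose from the dose of the other duplicated genes.

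The total per library ran from 46346019 to 67281449 gene counts. All 6 neuronal and all 6 cortical-layer markers listed for the check of the tissue were tested, and their summed levels lay between 5890 and 7510 CPM and between 562 and 723 CPM, where CPM is a gene's count scaled to the effective size of its library (trimmed mean of M-values). WT replicate 6 had the lowest sums of the astrocyte, microglia, endothelial, white blood cell, choroid plexus and meninges markers, and Dp16 replicate 3 had the highest choroid plexus sum, 372 CPM. In bulk cortex, fewer cells of a type and less RNA per cell cannot be told apart. The calls described for the 9 genes were the same without these 2 libraries.

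None of the 9 genes passed the test in any comparison of genotypes. In Dp16 against WT cortex, 0 of 9 passed an adjusted p of 0.05 in edgeR's quasi-likelihood test with Benjamini-Hochberg adjustment, where 0.748% of all 18717 genes did. In Dp16_2xIFNRs against WT cortex 0 of 9 passed, with 1.05% of all genes called. In Dp16_2xIFNRs against Dp16 cortex 0 of 9 passed, with 0.0214% of all genes called. At an unadjusted p of 0.05 the counts were 1 of 9 (8.84% of all genes), 2 of 9 (11.5%) and 0 of 9 (2.19%) in the same order. limma-voom called 0 of 9 in each comparison, and DESeq2 called 0 of 9 in Dp16 against WT, 1 of 9 (Stat6) in Dp16_2xIFNRs against WT and 0 of 9 in Dp16_2xIFNRs against Dp16. For the 9 genes in these comparisons, the widest 95% interval of the main edgeR fit was that of Socs1 in Dp16_2xIFNRs against WT. It ran from -0.57 to 0.15 on the log2 scale. A 1.5-fold change lies outside the limits of every one of these intervals, narrowly so for Socs1 and Socs3. In refits without single libraries the values in Dp16_2xIFNRs against WT reached -0.28 for Socs1 and -0.33 for Socs3. The limit is therefore given for the main fit only.

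The 9 genes together spanned a wider range of levels than any 1 of them did between genotypes. On the scale of the deposited RPKM values, which divide by gene length, the mean over 18 libraries was 37.3 ± 2.12 RPKM for Jak1 (SD, n = 18) and 9.32 ± 0.394 RPKM for Pias1. Stat3 followed with 8.72 ± 0.541 RPKM and Jak2 with 8.71 ± 0.744 RPKM. The next were Stat6 with 4.37 ± 0.454 RPKM, Socs2 with 3.85 ± 0.482 RPKM and Tyk2 with 2.91 ± 0.517 RPKM. Socs3 had 1.40 ± 0.292 RPKM and Socs1, the lowest, 0.378 ± 0.0787 RPKM. Among neighbours in this order, the ranges over libraries were separate only for Jak1 above Pias1, Jak2 above Stat6, Tyk2 above Socs3 and Socs3 above Socs1. Stat3 was above Jak2 in 9 of 18 libraries, so those 2 levels could not be ordered. Jak1, which the type I and type II interferon receptors share, was above both of its partner kinases in every library.

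**Figure D1:**
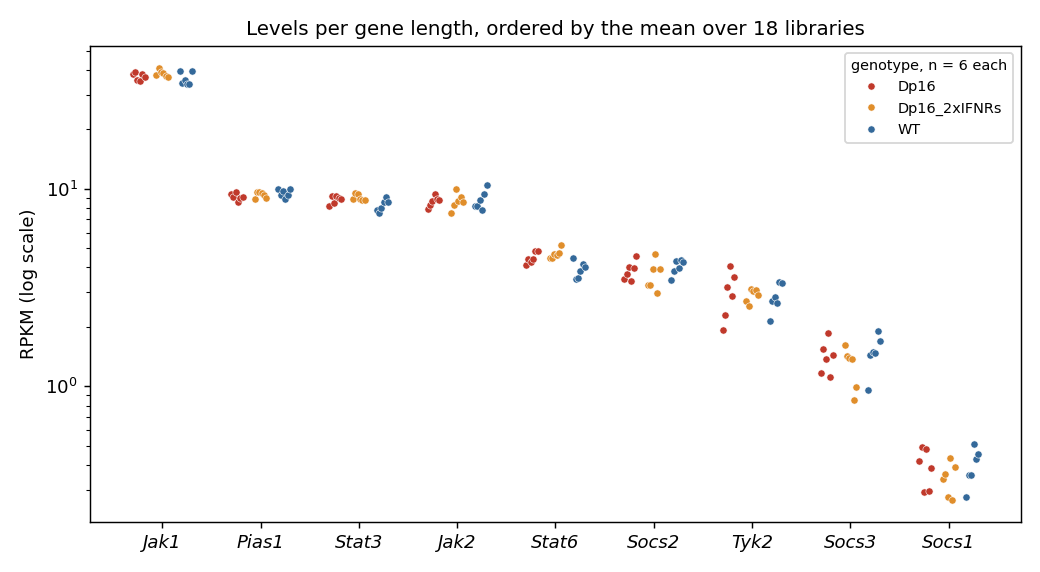
Deposited RPKM values of the 9 genes on a log axis, with 1 point per library and the genotypes side by side (n = 6 each), ordered by the mean over 18 libraries. Jak1 lies between 34.0 and 41.1 RPKM in all libraries and Socs1 between 0.266 and 0.509 RPKM, while the genotypes overlap within every gene.

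Among the kinases, Jak1 (chromosome 4, 101152367 to 101265282, minus strand, GRCm38) is used by interferon, interleukin-6 family and common gamma chain receptors. Its lowest, median and highest levels were 173, 181 and 194 CPM in Dp16 libraries and 177, 188 and 203 CPM in Dp16_2xIFNRs libraries, against 165, 173 and 199 CPM in WT libraries. The 3 ranges overlapped, with 3 of 6 WT libraries at or above the lowest Dp16 library and 2 of 6 at or above the lowest Dp16_2xIFNRs library. The log2 fold changes against WT were 0.03 ± 0.0501 (SE) in Dp16 and 0.07 ± 0.0501 in Dp16_2xIFNRs, with edgeR adjusted p = 0.937 and 0.641. Jak1 overlaps Raver2 on the opposite strand, which was at 17.2 ± 0.856 CPM in Dp16, 17.6 ± 1.1 CPM in Dp16_2xIFNRs and 18.6 ± 1.3 CPM in WT.

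Jak2 (chromosome 19, 29251828 to 29313080, plus strand) serves the interferon gamma receptor and the growth hormone, prolactin and erythropoietin receptors. It had 40.4, 43.0 and 47.1 CPM as lowest, median and highest values in Dp16 and 38.7, 42.5 and 50.8 CPM in Dp16_2xIFNRs, against 40, 43.4 and 51.3 CPM in WT. No genotype stood apart. Both log2 fold changes against WT were -0.03, with SE 0.0652 in Dp16 and 0.0651 in Dp16_2xIFNRs and edgeR adjusted p = 0.958 and 0.933.

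Tyk2 (chromosome 9, 21104068 to 21131243, minus strand), which pairs with Ifnar1 at the type I interferon receptor and with Il10rb at the interleukin-10 receptor, was the most scattered of the kinases. Its lowest, median and highest levels were 10.9, 16.8 and 22.4 CPM in Dp16 and 14.2, 16.3 and 17.4 CPM in Dp16_2xIFNRs, against 12.3, 15.5 and 18.6 CPM in WT. Both the lowest library of all 18, Dp16 replicate 1, and the highest, Dp16 replicate 4, were Dp16, so the Dp16 range enclosed the others. The log2 fold changes against WT were 0.06 ± 0.136 and 0.02 ± 0.136 (SE) in Dp16 and Dp16_2xIFNRs, with edgeR adjusted p = 0.965 and 0.989. The Dp16 value was -0.04 without Dp16 replicate 4, and the Dp16_2xIFNRs value was below 0 without any 1 of WT replicate 1, 2 or 4 or Dp16_2xIFNRs replicate 3, so neither has a settled sign.

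**Figure D2:**
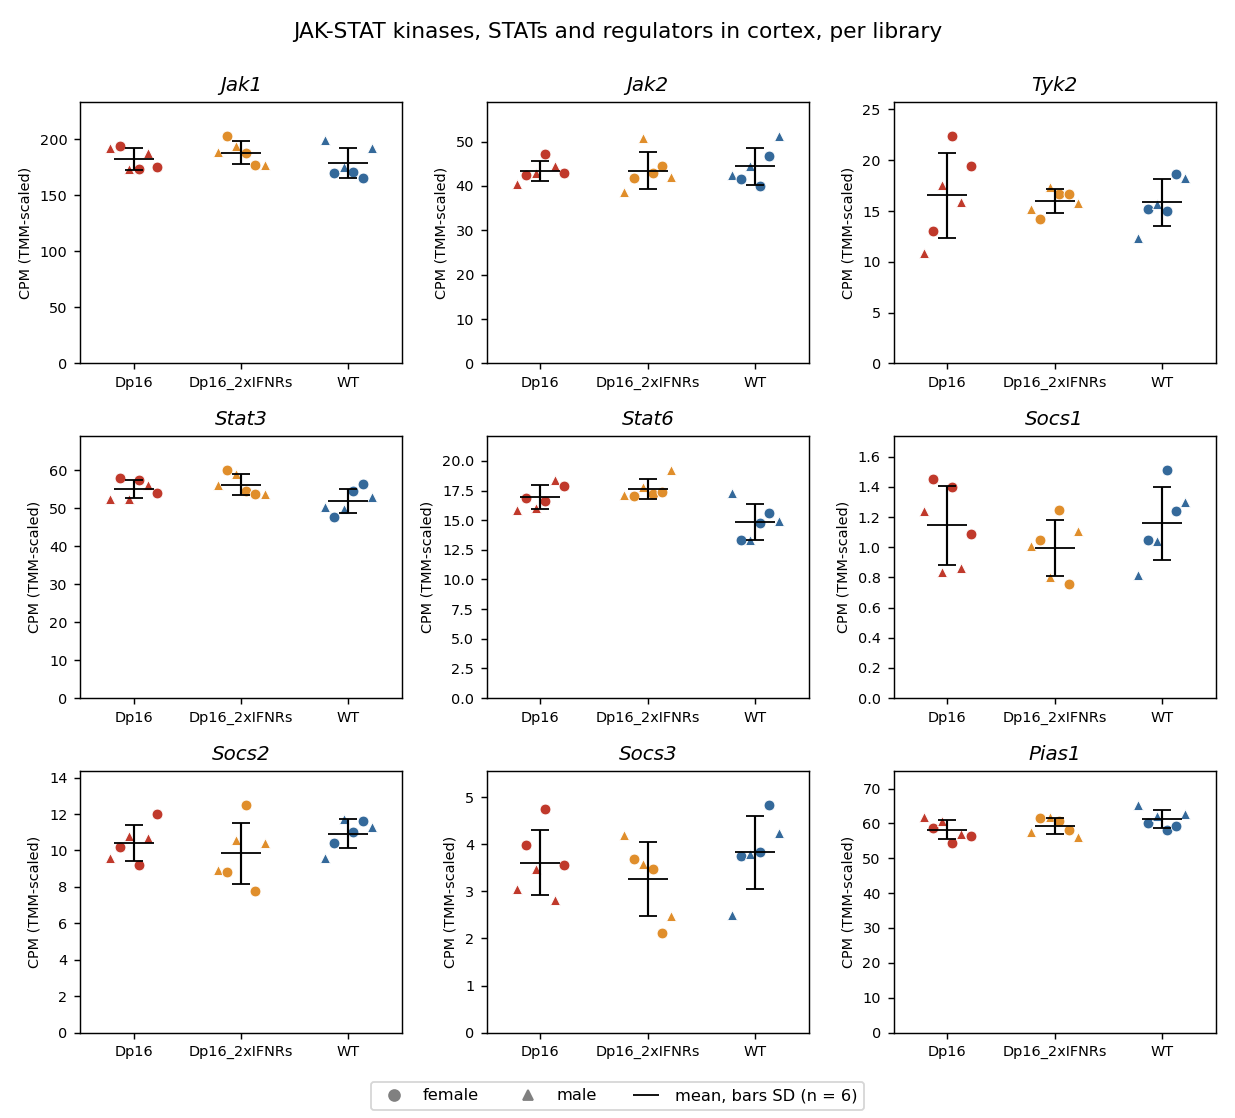
CPM of each of the 9 genes in every library, by genotype, with circles for females and triangles for males, a line at the mean and bars for the SD (n = 6 per genotype). In the Stat6 panel 5 of 6 WT libraries lie below all libraries of both duplication genotypes, and in the other panels the genotypes overlap more widely.

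Stat6 and Stat3 were the 2 members with the lowest p-values, and both lay above WT in the duplication genotypes without passing the test. Stat6 (chromosome 10, 127642986 to 127660957, plus strand) is the transcription factor activated by interleukin-4 and interleukin-13. Its lowest, median and highest levels were 15.9, 16.7 and 18.4 CPM in Dp16 and 17, 17.3 and 19.2 CPM in Dp16_2xIFNRs, against 13.3, 14.9 and 17.3 CPM in WT. All libraries of both duplication genotypes were above the WT mean of 14.9 CPM. The ranges met through 1 library, WT replicate 1, at 17.3 CPM, while the other 5 WT libraries lay between 13.3 and 15.6 CPM.

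The Stat6 log2 fold change was 0.19 ± 0.0633 (SE) in Dp16 against WT, a fold of 1.14 with a 95% interval from 1.04 to 1.25 (edgeR adjusted p = 0.285, unadjusted p = 0.00763). In Dp16_2xIFNRs against WT it was 0.24 ± 0.0632, a fold of 1.18 with an interval from 1.08 to 1.30 (edgeR adjusted p = 0.0748, unadjusted p = 0.001). Against Dp16, the Dp16_2xIFNRs value was 0.06 ± 0.0629 with an interval from -0.08 to 0.19 (edgeR adjusted p = 1.0). The 2 comparisons with WT share their WT libraries. Stat6 passed in Dp16_2xIFNRs against WT with DESeq2 (adjusted p = 0.0207), and in edgeR without WT replicate 1 (log2 fold change 0.29, adjusted p = 0.0198), and over the other alternatives the adjusted p reached 0.185.

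Stat6 overlaps Nab2, a transcriptional corepressor of the early growth response factors, on the opposite strand. Nab2 averaged 53.8 ± 7.98 CPM in Dp16 and 50.7 ± 10.5 CPM in Dp16_2xIFNRs, against 55.7 ± 13 CPM in WT (SD, n = 6 each), with edgeR adjusted p = 0.972 and 0.875 against WT. The libraries were made with a strand-specific kit, but the strand setting of the counting is not given in the sources used here. White blood cell markers moved in the same direction as Stat6: their summed level ran from 5.86 to 6.94 CPM in Dp16 and from 5.00 to 7.02 CPM in Dp16_2xIFNRs, against 3.52 to 5.95 CPM in WT. Most of this sum was Ptprc alone, at 4.65 ± 0.543 CPM in Dp16 and 4.72 ± 0.574 CPM in Dp16_2xIFNRs, against 4.14 ± 0.765 CPM in WT. Of the 7 markers 4 were tested, with all 4 above 0 on the log2 scale and 0 called in both comparisons with WT, 3 had an unadjusted p below 0.05 in Dp16 and 1 in Dp16_2xIFNRs, and the 3 too low to test included the lymphocyte markers Cd3e and Ms4a1. The sum was highest in Dp16_2xIFNRs replicate 6, the library that also had the highest Stat6 level, and the part of these cells in the Stat6 values was not tested. Red blood cell markers (haemoglobin genes and Alas2) were also above 0 in 5 of 5 in both comparisons, with medians of 0.49 in Dp16 and 0.39 in Dp16_2xIFNRs and 0 called, and their sum ran from 33.1 to 85.8 CPM in Dp16 and from 37.5 to 105 CPM in Dp16_2xIFNRs, against 36.8 to 55.5 CPM in WT. Microglia markers were above 0 in 0 of 5 in both, with medians of -0.13 and -0.14, 0 called, and 1 and 2 at an unadjusted p of 0.05. P2ry12, a purine receptor of microglia, was at -0.29 in Dp16 and -0.35 in Dp16_2xIFNRs (edgeR adjusted p = 0.434 and 0.203). Oligodendrocyte markers were above 0 in 4 of 5 in Dp16 and 5 of 5 in Dp16_2xIFNRs, with medians of 0.02 and 0.12. None was called, and 0 and 2 had an unadjusted p below 0.05. Cortical-layer markers were above 0 in 1 of 6 in both, with medians of -0.07 and -0.05 and 0 called. The part of any of these cell types in the members' values was not tested.

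Stat3 (chromosome 11, 100885098 to 100939540, minus strand) carries the signals of the interleukin-6 family and of interleukin-10. It had lowest, median and highest levels of 52.4, 54.9 and 57.9 CPM in Dp16 and 53.6, 55.4 and 59.9 CPM in Dp16_2xIFNRs, against 47.6, 51.5 and 56.3 CPM in WT. Every library of the duplication genotypes was above the WT mean of 51.8 CPM, and 3 WT libraries were at or above the lowest Dp16 library. The log2 fold change was 0.09 ± 0.0461 (SE) in Dp16 (edgeR adjusted p = 0.641) and 0.12 ± 0.0460 in Dp16_2xIFNRs (edgeR adjusted p = 0.303, unadjusted p = 0.0207), against WT in both. Stat3 overlaps Stat5a on the opposite strand, which was at 2.06 ± 0.358 CPM in Dp16, 2.23 ± 0.154 CPM in Dp16_2xIFNRs and 2.07 ± 0.263 CPM in WT. The part of this overlap in the Stat3 values was not tested.

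**Figure D3:**
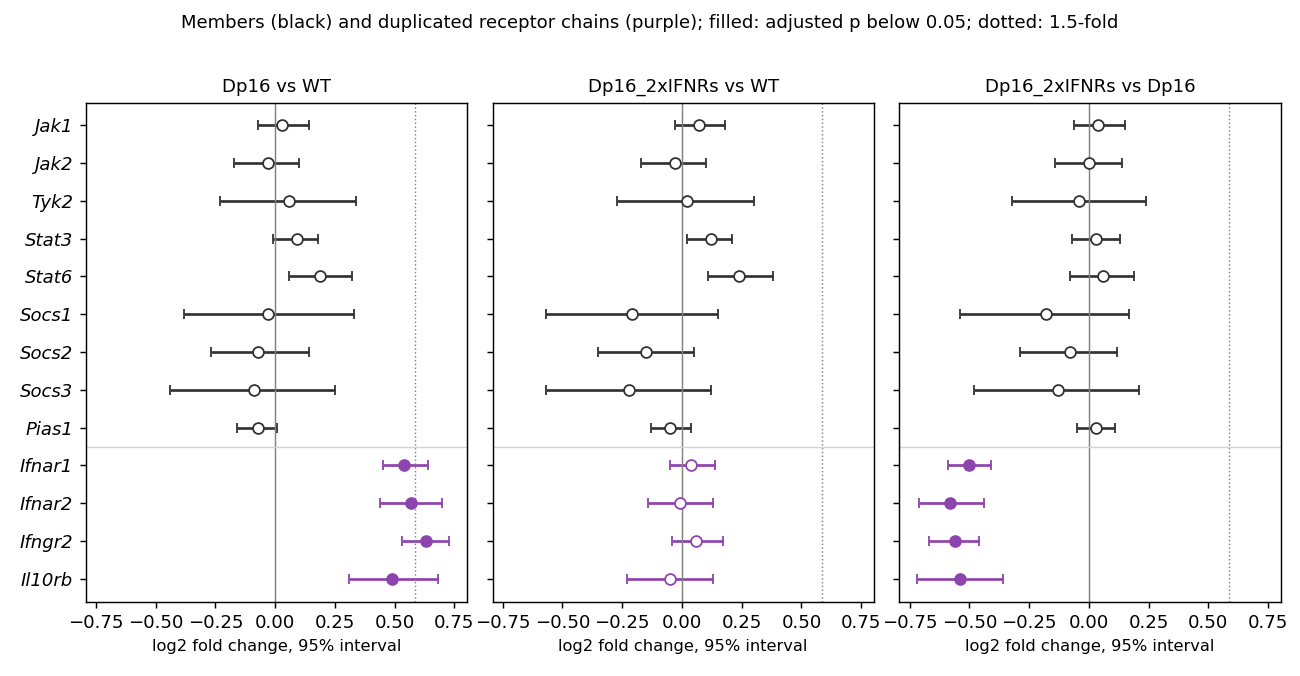
Log2 fold changes with 95% intervals from the edgeR fit for the 9 genes (black) and the 4 duplicated receptor chains (purple) in the 3 genotype comparisons, with filled points for an adjusted p below 0.05 and a dotted line at 1.5-fold. The receptor chains are filled in Dp16 against WT and in Dp16_2xIFNRs against Dp16, while every member is open, with Stat6 at 0.19 and 0.24 against WT.

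The regulators gave values below 0 against WT, none of them called. All 4 had a log2 fold change below 0 in both comparisons with WT, with a median of -0.07 in Dp16 and -0.18 in Dp16_2xIFNRs, where the median of all genes was 0.0 in each. Without Dp16_2xIFNRs replicate 5, the library lowest in all 3 SOCS genes, the values in Dp16_2xIFNRs against WT were -0.11 for Socs3, -0.12 for Socs1 and -0.09 for Socs2. The Socs1 value in Dp16 had no settled sign, as it was above 0 when any 1 of 5 libraries was left out. Socs3 (chromosome 11, 117966079 to 117970047, minus strand), the feedback inhibitor of interleukin-6 family signalling and a STAT3 target, had lowest, median and highest levels of 2.82, 3.53 and 4.75 CPM in Dp16 and 2.12, 3.53 and 4.19 CPM in Dp16_2xIFNRs, against 2.51, 3.82 and 4.84 CPM in WT. Only Dp16_2xIFNRs replicates 5 and 6, at 2.12 and 2.48 CPM, lay below all WT libraries. The log2 fold changes against WT were -0.09 ± 0.166 (SE) in Dp16 and -0.22 ± 0.166 in Dp16_2xIFNRs (edgeR adjusted p = 0.947 and 0.683).

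Socs1 (chromosome 16, 10782240 to 10785536, minus strand), an inhibitor of JAK catalytic activity induced by interferon gamma, is on the chromosome that carries the duplication but outside the duplicated segment, taken here as 75540514 to 97962622. Its levels were 0.839, 1.16 and 1.45 CPM as lowest, median and highest in Dp16 and 0.754, 1.03 and 1.25 CPM in Dp16_2xIFNRs, against 0.817, 1.14 and 1.51 CPM in WT. These rest on 37 to 77 counts per library, the fewest of the 9 genes. The log2 fold changes against WT were -0.03 ± 0.170 (SE) in Dp16 and -0.21 ± 0.170 in Dp16_2xIFNRs (edgeR adjusted p = 0.989 and 0.723).

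Socs2 (chromosome 10, 95385362 to 95417180, minus strand), which restrains growth hormone signalling, had 9.20, 10.5 and 12 CPM as lowest, median and highest values in Dp16 and 7.78, 9.66 and 12.5 CPM in Dp16_2xIFNRs, against 9.56, 11.1 and 11.7 CPM in WT. The Dp16_2xIFNRs range enclosed that of WT on both sides. Its log2 fold changes against WT were -0.07 ± 0.0973 (SE) in Dp16 and -0.15 ± 0.0973 in Dp16_2xIFNRs (edgeR adjusted p = 0.931 and 0.621). Pias1 (chromosome 9, 62878368 to 62987924, minus strand), a SUMO ligase that restrains STAT proteins, had 54.5, 57.8 and 61.7 CPM in Dp16 and 56.1, 59.3 and 61.8 CPM in Dp16_2xIFNRs, against 58.1, 61.0 and 65.3 CPM in WT. In each duplication genotype 3 of 6 libraries were below all WT libraries. The log2 fold changes were -0.07 ± 0.0401 (SE) and -0.05 ± 0.0401 (edgeR adjusted p = 0.643 and 0.758) in Dp16 and Dp16_2xIFNRs against WT.

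The promoters of the members were searched for letters that STAT complexes are known to bind, because Socs1 and Socs3 are textbook STAT targets. RefSeq (GRCm38.p6) gave the 250 bases before the start of 8 of the 9 genes, Socs2 being the one without an entry. The palindrome TTCNNNGAA, the core of the gamma-activated site, was present in 1 of 8 (Socs3) and in 7.02% of 32851 promoters of that length. The arrangement that STAT6 prefers, the same TTC and GAA with any 4 bases between them, was in 0 of 8 and in 5.85% of all. A pair of GAAA with any 2 bases between them, the core of the interferon-stimulated response element, was in 1 of 8 (Socs1) and in 2.98% of all, and this last search was added after the sequences had been seen. Both strands were searched, and a match is a description of the letters, not a bound site. The Socs3, Socs1 and Stat6 windows are shown 5′ to 3′ on the gene's strand because the first 2 hold the matches and Stat6 is the member nearest to the threshold, with the matched letters in capitals:
Socs3 (chr11:117969367-117969616, minus strand): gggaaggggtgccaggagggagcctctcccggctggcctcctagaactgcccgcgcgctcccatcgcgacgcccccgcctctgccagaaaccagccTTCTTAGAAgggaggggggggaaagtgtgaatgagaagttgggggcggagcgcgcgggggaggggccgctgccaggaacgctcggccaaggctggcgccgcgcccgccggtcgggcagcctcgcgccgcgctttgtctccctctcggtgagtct
Socs1 (chr16:10785537-10785786, minus strand): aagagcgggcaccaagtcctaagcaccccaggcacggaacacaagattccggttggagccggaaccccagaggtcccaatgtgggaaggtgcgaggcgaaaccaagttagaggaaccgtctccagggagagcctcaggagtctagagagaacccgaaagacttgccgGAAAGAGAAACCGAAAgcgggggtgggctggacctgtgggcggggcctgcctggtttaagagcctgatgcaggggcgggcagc
Stat6 (chr10:127642736-127642985, plus strand): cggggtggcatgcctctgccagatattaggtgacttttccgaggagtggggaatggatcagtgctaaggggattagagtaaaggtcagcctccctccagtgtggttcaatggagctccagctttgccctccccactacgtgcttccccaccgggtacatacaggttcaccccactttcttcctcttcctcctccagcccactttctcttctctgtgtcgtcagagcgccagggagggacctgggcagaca
In the Socs3 window TTCTTAGAA lies from -154 to -146 of the RefSeq start, which is inside the gene as placed by GENCODE because that annotation starts Socs3 further upstream. In the Socs1 window GAAAGAGAAA (-83 to -74) and GAAACCGAAA (-77 to -68) overlap each other. The Stat6 window holds none of the 3 motifs. Of the windows not shown, that of Pias1 (chr9:62980880-62981129) also lies inside the gene as placed by GENCODE. The Jak1 window (chr4:101265224-101265473) overlaps its gene in part.

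None of the members passed the test between the sexes. In females against males, with genotype in the fit, 0 of 9 passed in edgeR (0.0641% of all genes called), 0 of 9 had an unadjusted p below 0.05 (6.64% of all genes), and DESeq2 and limma-voom also called 0 of 9. The gene with the largest difference was Socs1, at 1.2 ± 0.240 CPM in females and 1.00 ± 0.187 CPM in males (SD, n = 9 each), a log2 fold change of 0.26 ± 0.139 (SE, edgeR adjusted p = 0.741). Whether the genotype difference itself differed between the sexes was tested as an interaction, and edgeR called 0 of 9 for Dp16 against WT (0.0% of all genes, and 0 of 9 against 3.08% unadjusted) and 0 of 9 for Dp16_2xIFNRs against WT (0.0% of all genes, and 0 of 9 against 5.87% unadjusted). Other tools were not run on the interactions.

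Pooled over the genotypes, the scatter between libraries of 1 genotype was highest for the SOCS genes and Tyk2. The pooled coefficient of variation was 21.2% for Socs3, 20.9% for Socs1, 17.5% for Tyk2 and 12.1% for Socs2, where counting error alone gives 7.30%, 13.1%, 3.42% and 4.26%. Jak2, Stat6, Jak1, Stat3 and Pias1 varied by 8.20%, 7.30%, 6.17%, 5.24% and 4.34%, where counting error gives 2.08%, 3.38%, 1.01%, 1.86% and 1.78%. Within single genotypes the order was not the same throughout. Tyk2 varied by 25.4% in Dp16 and 7.42% in Dp16_2xIFNRs, against 14.8% in WT, and Socs2 by 9.66% in Dp16 and 17.1% in Dp16_2xIFNRs, against 7.45% in WT, which is below the 10.2% of Stat6 there. From the lowest to the highest library the level differed 2.29-fold for Socs3, 2.05-fold for Tyk2 and 2.01-fold for Socs1, against 1.2-fold for Pias1.

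Over the 18 libraries, 0 of 36 pairs of members passed for Pearson's r of log2 CPM after Benjamini-Hochberg adjustment over the 36 pairs, and 1 passed for Spearman's rho. That pair was Jak2 and Tyk2, with r = 0.59 (permutation p = 0.0106, adjusted p = 0.19) and rho = 0.76 (permutation p = 0.00049, adjusted p = 0.0176). Within genotypes r was 0.84 in Dp16, 0.74 in Dp16_2xIFNRs and 0.71 in WT, and r was 0.63 without the 2 libraries farthest from the median of Jak2. Socs1 and Socs3 had r = 0.61 (permutation p = 0.00691, adjusted p = 0.19) and rho = 0.55 (permutation p = 0.0212, adjusted p = 0.254), with 0.66 in Dp16, 0.36 in Dp16_2xIFNRs and 0.74 in WT. Without the 2 libraries farthest from the median of Socs1 it was 0.51. Stat3 and Stat6 had r = 0.56 (permutation p = 0.016, adjusted p = 0.192), with 0.39 in Dp16, -0.41 in Dp16_2xIFNRs and 0.41 in WT. After removal of the genotype and sex means, r was 0.66 for Jak2 with Tyk2 and 0.66 for Jak1 with Pias1 (permutation adjusted p = 0.0513 each). Jak1 and Tyk2, the partners at the type I interferon receptor, ran the opposite way, with r = -0.54 (permutation p = 0.0214, adjusted p = 0.193) and rho = -0.47 (permutation p = 0.0495, adjusted p = 0.404), and r was -0.89 in Dp16, -0.45 in Dp16_2xIFNRs and -0.44 in WT, and -0.48 without the 2 farthest libraries.

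**Figure D4:**
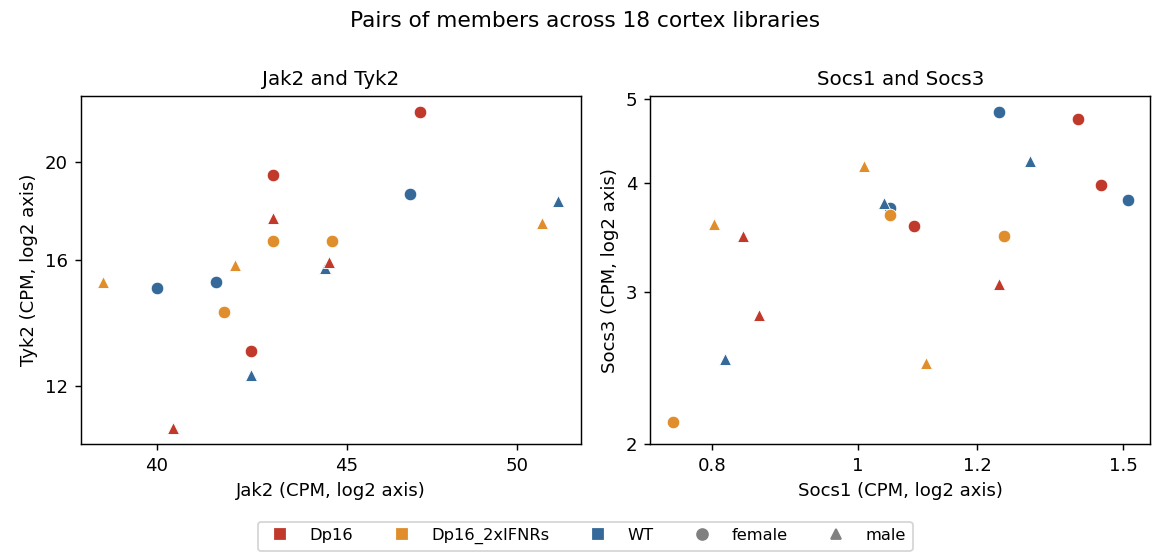
Level of Tyk2 against Jak2 (left) and of Socs3 against Socs1 (right) in 18 libraries, CPM on log2 axes, coloured by genotype and shaped by sex. Libraries with more Jak2 tend to have more Tyk2 (rho = 0.76), and the genotypes are mixed along both clouds.

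The genes whose pattern was most like that of a member were found among 14564 genes with a mean of at least 1 CPM, by Pearson's r of log2 CPM after removal of the genotype and sex means over the 18 libraries, as a description. Tyk2 was closest to Rreb1 (r = 0.98), Gm35339 (0.98) and Pxdn (0.97). It had 767 genes at r of 0.8 or more and 119 at -0.8 or less, together 6.08% of those searched and the most of any member. Jak2 was closest to Gm49336 (0.93), Cdc37l1 (0.91) and Ercc6 (0.91), and had 107 and 115 genes beyond these bounds. Jak1 was closest to Trim44 (0.92), Klf12 (0.91) and Fam160a2 (0.91), with 155 and 20.

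The remaining members had few like genes. Pias1 was nearest to Pak3 (0.89), Cbfa2t2 (0.88) and Tgoln1 (0.88), with 37 genes at 0.8 or more. Socs3 was nearest to the mitochondrial transfer RNA gene mt-Tm (0.92), Rasl11a (0.86) and Arl4d (0.85), with 7 such genes. Socs2 was nearest to Uck2 (0.85), Trib2 (0.84) and Fam43b (0.83), with 5, and Stat3 to Synpo (0.87), P4ha1 (0.86) and Mamld1 (0.85), with 4. Socs1 was nearest to Sult2b1 (0.82), Rassf1 (0.78) and Pmvk (0.78), with 1. Stat6 had 0 such genes, and its nearest were Gm14703 (0.73), Nck2 (0.71) and Hcrtr1 (0.71).

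Upstream of the members, the receptor chains inside the duplicated segment changed with genotype. Ifnar1 and Ifnar2, the type I interferon receptor chains, Ifngr2, a chain of the type II receptor, and Il10rb, a chain of the interleukin-10 receptor, were all called higher in Dp16 than in WT (4 of 4) and lower in Dp16_2xIFNRs than in Dp16 (4 of 4), and these 4 were all of the genes called between Dp16_2xIFNRs and Dp16. Ifnar1 averaged 64.5 ± 1.5 CPM in Dp16 and 45.7 ± 1.08 CPM in Dp16_2xIFNRs, against 44.3 ± 3.46 CPM in WT (SD, n = 6 each). Ifngr2 averaged 61.9 ± 2.72 CPM in Dp16 and 41.8 ± 3.03 CPM in Dp16_2xIFNRs, against 40 ± 1.63 CPM in WT. The log2 fold changes of the 4 in Dp16 against WT were 0.54 (Ifnar1), 0.57 (Ifnar2), 0.63 (Ifngr2) and 0.49 (Il10rb), with edgeR adjusted p from 8.33e-08 to 0.00386. The Il10rb difference between Dp16_2xIFNRs and Dp16 was -0.54 (edgeR adjusted p = 0.0194), and it missed the threshold in 8 of 18 refits that each leave 1 library aside (adjusted p up to 0.0835). In Dp16_2xIFNRs against WT 0 of 4 passed in edgeR, 0 of 4 at an unadjusted p of 0.05, and 0 of 4 in DESeq2 and limma-voom.

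Of the 20 receptor chains listed outside the segment 19 were tested and 0 were called in any genotype comparison by edgeR, DESeq2 or limma-voom, with 1, 1 and 0 at an unadjusted p of 0.05 in Dp16 against WT, Dp16_2xIFNRs against WT and Dp16_2xIFNRs against Dp16. The most abundant per length were Cntfr, the ciliary neurotrophic factor receptor, and Il6st, the signal chain of the interleukin-6 family. Il6st averaged 102 ± 8.01 CPM in Dp16 and 108 ± 10.4 CPM in Dp16_2xIFNRs, against 107 ± 7.64 CPM in WT. Cntfr averaged 104 ± 7.67 CPM in Dp16 and 103 ± 7.36 CPM in Dp16_2xIFNRs, against 101 ± 10.6 CPM in WT. Ligands were scarce: 6 of 17 listed passed the filter on low counts, 0 were called by any of the 3 tools (0, 0 and 1 at an unadjusted p of 0.05 in Dp16 against WT, Dp16_2xIFNRs against WT and Dp16_2xIFNRs against Dp16), and Il10 and Ifnb1 had no count in any library. The most abundant ligand per length was Gh, growth hormone, whose level ran from 0.0175 to 1.36 CPM in Dp16 and from 0.0 to 1.29 CPM in Dp16_2xIFNRs, against 0.0 to 4.47 CPM in WT. Ctf1, cardiotrophin, averaged 1.04 ± 0.266 CPM in Dp16 and 0.890 ± 0.197 CPM in Dp16_2xIFNRs, against 1.06 ± 0.142 CPM in WT.

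Of 7 further genes of the JAK and STAT families and their partners, 0 were called by edgeR or limma-voom in any genotype comparison, and DESeq2 called 1 in each comparison with WT and 0 in Dp16_2xIFNRs against Dp16. At an unadjusted p of 0.05 there were 2 in Dp16 against WT, 2 in Dp16_2xIFNRs against WT and 0 in Dp16_2xIFNRs against Dp16. In Dp16 against WT 6 of 7 lay above 0 on the log2 scale (median 0.08), where 49.3% of all genes did. In Dp16_2xIFNRs against WT 7 of 7 did (median 0.11), where 50.2% of all genes did. The most abundant per length, Stat5b and Stat2, averaged 34.1 ± 1.70 and 25.1 ± 3.91 CPM in Dp16 and 34.4 ± 1.54 and 25.1 ± 2.19 CPM in Dp16_2xIFNRs, against 34.1 ± 3.32 and 24.3 ± 2.12 CPM in WT.

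Of 16 further regulators, which comprise the other SOCS and PIAS genes, phosphatases, Sh2b adaptors and Usp18, 0 were called in any genotype comparison by the 3 tools, with 0, 2 and 0 at an unadjusted p of 0.05 in Dp16 against WT, Dp16_2xIFNRs against WT and Dp16_2xIFNRs against Dp16. The median log2 fold change was -0.05 in Dp16 and -0.03 in Dp16_2xIFNRs against WT. Of the 16, 3 lay above 0 in each of these comparisons, where 49.3% and 50.2% of all genes did. Ptpn11, the phosphatase SHP2, was the most abundant per length, with 216 ± 6.61 CPM in Dp16 and 216 ± 3.74 CPM in Dp16_2xIFNRs, against 211 ± 11.5 CPM in WT. Socs5 had 123 ± 7.25 CPM in Dp16 and 123 ± 4.05 CPM in Dp16_2xIFNRs, against 129 ± 6.92 CPM in WT. Its mean over 18 libraries was 26.8 RPKM, where Socs2, the highest of the 3 SOCS genes of the set, had 3.85 RPKM.

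**Figure D5:**
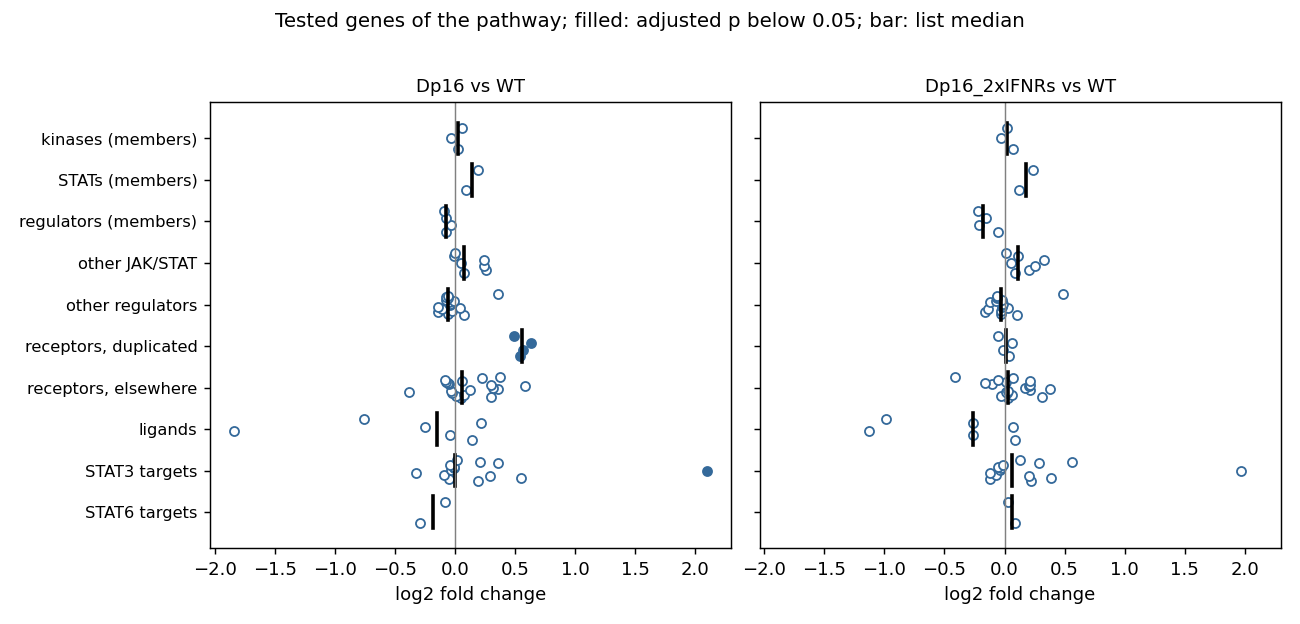
Log2 fold changes of all tested genes of each list in Dp16 against WT (left) and Dp16_2xIFNRs against WT (right), with filled points for an edgeR adjusted p below 0.05 and a bar at each list's median. The duplicated receptors are filled in the left panel only, and the other filled point is the STAT3 target Lcn2.

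Downstream, 1 of 14 listed STAT3 targets was called in Dp16 against WT and 0 in the other comparisons, with 4, 3 and 0 at an unadjusted p of 0.05 in Dp16 against WT, Dp16_2xIFNRs against WT and Dp16_2xIFNRs against Dp16. Of the 14 targets, 7 lay above 0 on the log2 scale in Dp16 against WT (median 0.0) and 7 in Dp16_2xIFNRs against WT (median 0.06). Junb, an early response factor of the AP-1 family, was at -0.32 in Dp16 against WT (edgeR adjusted p = 0.798). The called gene was Lcn2, lipocalin 2, an iron-siderophore binding protein of neutrophils and reactive astrocytes. It ran from 0.182 to 1.38 CPM in Dp16 and from 0.380 to 0.785 CPM in Dp16_2xIFNRs, against 0.0771 to 0.433 CPM in WT. The log2 fold change was 2.1 ± 0.474 (SE, edgeR adjusted p = 0.0398) in Dp16 and 1.97 ± 0.476 (edgeR adjusted p = 0.0525) in Dp16_2xIFNRs against WT. The Dp16 value ran from 1.66 without Dp16 replicate 4 (adjusted p = 0.141) to 2.79 without WT replicate 5 (adjusted p = 0.0021), and on the log2(RPKM + 1) scale in limma it was 0.52 (adjusted p = 0.119). The call in Dp16 was lost when any 1 of 12 libraries was omitted (adjusted p up to 0.141). It was also lost with limma-voom (0.0603), with no filter on low counts (0.0694) and with only the 2 genotypes in the fit (0.153). DESeq2 kept it (0.00103) and also called Lcn2 in Dp16_2xIFNRs against WT (0.00266), as did limma-voom (0.0353). The neutrophil markers S100a8 and S100a9 stood at 0.501 ± 0.369 and 0.732 ± 0.399 CPM in Dp16 and at 0.413 ± 0.215 and 0.589 ± 0.263 CPM in Dp16_2xIFNRs, against 0.226 ± 0.0662 and 0.371 ± 0.137 CPM in WT, and their part in the Lcn2 values was not tested.

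Serpina3n and Gfap, astrocyte genes of the same list named after their values were seen, stood at 10.2 ± 0.949 and 181 ± 20.8 CPM in Dp16 and at 9.71 ± 1.63 and 170 ± 16 CPM in Dp16_2xIFNRs, against 7.95 ± 0.952 and 148 ± 21.9 CPM in WT. Their edgeR adjusted p in Dp16 against WT was 0.0819 and 0.157, and DESeq2 called Serpina3n (0.0203). The summed astrocyte markers ran from 2010 to 2540 CPM in Dp16 and from 1970 to 2460 CPM in Dp16_2xIFNRs, against 1680 to 2540 CPM in WT, with 0 of 5 called against WT. Of 5 STAT6 targets only Mrc1 and Ccl17 were high enough to test, and neither was called by any of the 3 tools or had an unadjusted p below 0.05. Mrc1, a mannose receptor of border macrophages, averaged 5.45 ± 0.890 CPM in Dp16 and 5.92 ± 1.25 CPM in Dp16_2xIFNRs, against 5.77 ± 1.61 CPM in WT. Ccl17, a chemokine, averaged 0.237 ± 0.101 CPM in Dp16 and 0.317 ± 0.147 CPM in Dp16_2xIFNRs, against 0.299 ± 0.157 CPM in WT.

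Immediate early genes, which neurons switch on within a short time of stimulation, were called in no comparison by the 3 tools (0 of 9, and 0 of 9 at an unadjusted p of 0.05 in each). On the log2 scale 1 of 9 lay above 0 in Dp16 against WT (median -0.26) and 5 of 9 in Dp16_2xIFNRs against WT (median 0.02). In Dp16_2xIFNRs against Dp16 9 of 9 did (median 0.26). Of all genes, 49.3%, 50.2% and 50.9% lay above 0 in the same order. The immediate early genes differed widely between libraries within genotypes. Egr1 averaged 485 ± 104 CPM in Dp16 and 582 ± 135 CPM in Dp16_2xIFNRs, against 533 ± 81.5 CPM in WT, and Arc 348 ± 130 CPM in Dp16 and 402 ± 149 CPM in Dp16_2xIFNRs, against 427 ± 121 CPM in WT. The sum of the 9 genes was lowest in Dp16_2xIFNRs replicate 5, at 686 CPM, which was also the library with the lowest Socs1, Socs2 and Socs3 levels. The part of these genes in the SOCS values was not tested.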

How the data were processed

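Libraries of polyadenylated RNA were prepared with a strand-specific kit and sequenced as paired ends, per the labels' protocols. The authors deposited whole-number counts per gene, and the submitters' processing notes name HISAT2 2.1.0, SAMtools 1.5, HTSeq 0.6.1 and the build GRCm38, without roles. The strand setting of the counting is not given in the sources used here. The authors also deposited RPKM values, which divide those counts by 1 length per gene for 31735 of 31735 genes checked (relative tolerance 1e-06).

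Here, 18717 of 55385 genes with enough counts (filterByExpr, minimum 10) were fitted in edgeR 4.0.16 over all 18 libraries with genotype and sex, TMM scaling and quasi-likelihood F tests, and p-values were adjusted over all of them. limma 3.58.1 and DESeq2 1.42.0 served as alternatives. Intervals are 95%, and CPM and counts carry counting error on top of the spread between libraries. The fit was tested on simulated counts for Dp16 against WT. There it called 22.4% of 49 genes changed 1.2-fold, 70.8% of 48 changed 1.5-fold and 0.0709% of 18324 unchanged genes. A change of about 1.2-fold in a member could thus be missed. Correlations used 100000 permutations, two-sided. The members and lists were chosen with earlier results of these data known. Named from each list were the genes called in any genotype comparison and otherwise the 2 with the highest mean RPKM. Named beyond this rule were Junb, Serpina3n and Gfap of the STAT3 targets and some ligands and cell type markers. Gene positions are from GENCODE on GRCm38 and promoters from RefSeq. Individual values of some genes of the lists are not reported here.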

Additional observations from a re-analysis of the deposited data

Results flagged for a closer look

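In 39 groups of 6 libraries tested by Dixon's criterion, 2 held a library far from the others, where chance flags about 1 group in 20. Stat6 in Dp16_2xIFNRs replicate 6 was 19.2 CPM, with the next library at 17.8 CPM. Ifngr2 in Dp16 replicate 4 was 56.6 CPM, below the next library at 61.4 CPM.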

How the results depend on the processing

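No member was called in the main fits, so no call could be lost. Of 866 values recomputed for the members under alternatives, 828 kept their direction and their side of the threshold. A further 36 changed sign without being called, and 2 newly passed. The 2 were Stat6 in Dp16_2xIFNRs against WT, with DESeq2 and without WT replicate 1, so that the count of members called there was 1 with DESeq2 and ran from 0 to 1 over the single libraries left out; the cause was not tested. The number of all genes called with DESeq2 was 250 in Dp16 against WT, 405 in Dp16_2xIFNRs against WT and 21 in females against males. With edgeR, 196 genes were called in Dp16_2xIFNRs against WT, and 121 to 270 without single libraries, the lowest without Dp16_2xIFNRs replicate 2. The labels do not say that replicate numbers pair the libraries, and not every same-numbered pair exceeded 0.1: their correlation ran from -0.145 to 0.318, 11 of 18 pairs were over 0.1 and 6 of 18 libraries correlated best with their own number. With the replicate number as a block, 304 genes were called in Dp16_2xIFNRs against WT, 0 members were called in any comparison, and Il10rb lost its call between Dp16_2xIFNRs and Dp16 (adjusted p = 0.0812). Some deposited column names share a number across genotypes, 5 numbers over 11 of 18 libraries, and what it marks is not given in the sources used here. The correlation of the 7 pairs sharing one ran from -0.0961 to 0.318 (median 0.174), with 5 over 0.1, against a median of -0.0135 over 101 other pairs of libraries of different genotypes. With that number as a random block in limma-voom, chosen after seeing the data, 0 members were called, and 144, 272 and 4 of all genes in Dp16 against WT, Dp16_2xIFNRs against WT and Dp16_2xIFNRs against Dp16.

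All sign changes were of log2 fold changes near 0. Jak2 in Dp16_2xIFNRs against Dp16 was -0.00074 with RLE size factors, -0.00075 with DESeq2, -0.0029 with limma-voom, -0.0025 with a filter of 1 CPM in 6 libraries, -0.0013 with the replicate block, -0.01 with the column-name number as a block and -0.0043 without both WT replicate 6 and Dp16 replicate 3, and ran from -0.05 to 0.04 without single libraries. Leaving out both of those libraries, an alternative chosen after seeing the data, gave 0.02 for Jak2 and 0.1 for Socs1 in Dp16 against WT, 0.01 for Jak2 and 0.09 for Tyk2 in Dp16_2xIFNRs against WT, and 0.0013 for Tyk2 in Dp16_2xIFNRs against Dp16. Without single libraries the values against WT ran from -0.06 to 0.01 for Jak2, -0.04 to 0.15 for Tyk2 and -0.09 to 0.05 for Socs1 in Dp16, and Socs1 was 0.04 there with the column-name number as a block. In Dp16_2xIFNRs they ran from -0.08 to 0.01 for Jak2 and -0.04 to 0.08 for Tyk2, and Tyk2 ran from -0.13 to 0.06 between Dp16_2xIFNRs and Dp16. The cause of these changes was not tested. Depth limits Socs1 most, with 37 to 77 counts per library.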
